A study of Mus musculus with 7 samples.

Results

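The genes examined were the matrix metalloproteinases (MMP), the ADAM and ADAMTS metalloproteases and the tissue inhibitors of metalloproteinases (TIMP) in lymphatic endothelial cells, which form the wall of lymphatic vessels. They were chosen by symbol (Mmp, Adam or Adamts followed by a number, and Timp1 to Timp4), which gave 78 of the 26583 gene symbols in the count table: 23 MMP, 32 ADAM, 19 ADAMTS and 4 TIMP genes. RNA had been sequenced from 3 naive skin libraries and 4 BPC melanoma libraries, all of the mouse ear pinna. The melanoma mice were BrafCA/+; pten l/l; Cre+. Naive replicates 1 and 3 were BrafCA/+; pten l/l; Cre-, and naive replicate 2 was a pool of that genotype and Braf+/+;pten l/l Cre+. All groups therefore carried the pten l/l alleles, and naive replicate 2 held some Cre+ mice. Naive replicate 1 pooled both sexes, naive replicate 2 was female and naive replicate 3 male, tumour replicates 1 and 2 were male, and tumour replicates 3 and 4 were female. Not given in the sources used here were the promoter that drove Cre, the ages, the cell sort and how many mice a library pooled. The sample titles give each tumour library its own tumour number, and the naive libraries differ in sex or genotype pool. The p-values measure only the spread between these libraries, which is not technical alone.

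The active enzymes of the MMP, ADAM and ADAMTS families share a zinc-dependent catalytic mechanism. MMPs cleave matrix proteins such as collagens and gelatin, and membrane-type members such as MMP14 act at the cell surface, where MMP14 with TIMP2 activates the secreted precursor of MMP2. ADAMs are mostly membrane proteins that release the outer parts of receptors and growth factors, a process called shedding. ADAMTS enzymes are secreted and trim procollagens and large proteoglycans, and ADAMTS3, with the cofactor CCBE1, processes the lymphatic growth factor VEGF-C. TIMPs block the active enzymes, and TIMP3 is the matrix-bound one, with a range that extends to some ADAMs and ADAMTSs. RNA levels say nothing of how much of an enzyme was active.

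Total counts were 52940832 to 63032175 per library, so that 3 counts, the detection floor used here, stood for 0.0478 to 0.0521 CPM, that is, counts scaled to 1000000 per library after TMM adjustment. The summed CPM of 14 lymphatic endothelial markers was 12603 to 15446 in naive and 11011 to 14540 in tumour libraries, and 1 of the 14 (Sox18) passed the test. Among markers of other cells, the summed CPM of every list but the keratinocyte one was higher in all tumour libraries than in any naive library. The sum over 16 fibroblast markers was 693, 682 and 1250 CPM in naive replicates 1 to 3 and 2955, 1869, 6385 and 18818 CPM in tumour replicates 1 to 4. Of the 15 tested, 3 rose (Pdgfra, Mfap5 and Cdh11), 10 were higher without overlap of the groups, and Tcf21 was at 0 in every library. Over all genes tested, 0.899% rose and 9.54% were higher without overlap, the shares to set beside the counts of every marker list. The 15 myeloid markers summed to 166 to 227 CPM in naive and 360 to 635 CPM in tumour, with Ptprc, Itgam and Emr1 (Adgre1) at 0 in naive, and 4 of 9 tested rose. In tumour replicates 1 to 4, Ptprc had 0, 0.049, 0 and 6.3 CPM and Itgam 0.199, 0, 0 and 8.35 CPM, mainly in replicate 4. Emr1 had 1.26, 5.11, 10.06 and 20.2 CPM there. Melanocyte markers summed to 1.87 to 16 CPM and 17 to 123 CPM (2 of 7 rose; Mlana at 0 in naive, Oca2 in all libraries), blood endothelial markers to 737 to 1023 CPM and 1398 to 1595 CPM (2 of 9 rose), mural cell markers to 57.8 to 74.3 CPM and 84.2 to 187 CPM (none of 5 passed; Rgs5 and Acta2 at 0 in naive), and keratinocyte markers to 7.55 to 65.7 CPM and 39.1 to 153 CPM (none of 8 passed; Dsg3 and Lor at 0 in all libraries). In tumour replicates 1 to 4, Rgs5 had 0, 0, 0 and 0.417 CPM, Acta2 0, 0.0164, 6.44 and 20.9 CPM, and Mlana 0, 1.46, 0.46 and 1.6 CPM. In bulk samples, fewer cells of a type and less RNA per cell cannot be told apart.

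Tumour lymphatic endothelial cell libraries held more RNA of the proteases Mmp2, Mmp14, Adam12 and Adam15, and less of the protease Adamts1 and the inhibitor Timp3. These 6 genes were the members past the threshold among 40 tested (edgeR's quasi-likelihood test, Benjamini-Hochberg adjusted p under 0.05 over 13453 genes). The 4 higher members were 10% of those tested and the 2 lower members 5%, where 0.899% of all genes tested were higher and 0.803% were lower. By family, 2 of 11 MMP genes and 2 of 13 ADAM genes rose, 1 of 12 ADAMTS genes fell, and 1 of 4 TIMP genes fell. The median log2 fold change (tumour over naive) was 1.76 for the MMP genes tested, 0.44 for ADAM, 1.23 for ADAMTS and -0.49 for TIMP, beside 0.04 over all genes tested. Leaving out 1 library moved 2 of these medians by over 1.5 times: that of ADAM was 0.28 without tumour replicate 4 and 0.86 without naive replicate 3, and the ADAMTS median was 0.75 and 1.90 without naive replicate 2 or 3 and 0.69 without tumour replicate 4. The fitted difference was above 0 for 31 of the 40 members (77.5%), and for 52.5% of all genes tested. Some of the 40, among them Adam3, Adam23, Adamts3 and Mmp15, passed the filter on low counts through the tumour libraries alone. That filter largely set their sign, so this share and the medians are descriptions only. The share over all genes was taken after the same filter. Without naive replicate 1, 2 or 3, none of the 6 passed. The adjusted p (edgeR, Benjamini-Hochberg) then lay between 0.055 and 0.153, between 0.0647 and 0.119 and between 0.0555 and 0.155, with 14, 17 and 15 members at an unadjusted p under 0.05. These fits called few genes of the whole table, 6, 21 and 15 higher and 1, 12 and 10 lower, against 121 and 108 with all libraries. Each of the 6 kept its direction, which the lack of overlap between the groups fixed in advance.

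**Figure D1:**
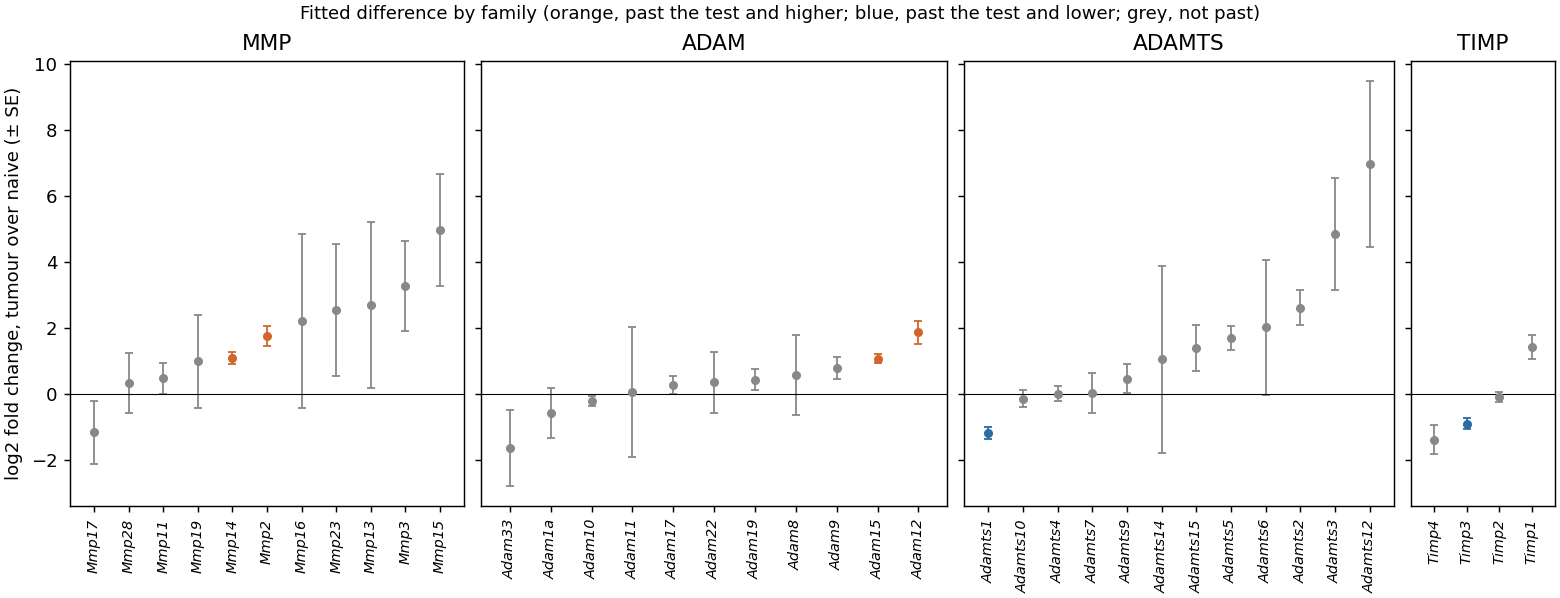
Log2 fold change of tumour over naive (points, edgeR) with its SE (bars) for the tested genes of each family, ordered by size. Orange and blue mark genes past the test. The SE was derived from the test statistic, so narrow bars are no separate support for the calls. Adam3 and Adam23, with no naive count, are left out because their fitted values have no meaning as a size; the 4 orange and 2 blue points have narrow bars, and the largest fitted values have wide ones.

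In 14 of the 40 members the CPM ranges of the groups lay apart. In 11 of them (27.5%) every tumour library was higher, and in 3 (7.5%) every tumour library was lower, where the shares among all genes tested were 9.54% and 8.53%. The 11 were Mmp2, Mmp14, Mmp15, Adam3, Adam9, Adam12, Adam15, Adamts2, Adamts3, Adamts5 and Timp1, and the 3 were Adamts1, Timp3 and Timp4. Mmp15 and Adam3 lie outside the rule for named genes and are listed after their values were seen. Mmp15, Adam3 and Adamts3 were tested only because of their tumour counts, which favours their place among the 11. Of the 78 members, 26 had no count in any library, among them the gelatinase gene Mmp9, the collagenase genes Mmp1a, Mmp1b and Mmp8, and 15 ADAM genes. Another 12 had a count but were too low to test, with 6.3 CPM at most; 6 of these had counts in tumour libraries only and 3 in naive libraries only.

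Levels of different genes were compared per kilobase of exon. Inhibitors led in both groups. Timp2 stood at 644 ± 81.4 CPM per kilobase (SD, n = 3) in naive and 606 ± 84.1 (SD, n = 4) in tumour, and Timp3 at 433 ± 41.2 and 233 ± 44.1. In naive libraries Adamts1 followed at 191.5 ± 38.9 CPM per kilobase, then Mmp2 at 47.9 ± 14.1 and Mmp14 at 40.9 ± 2.03, a pair that did not differ beyond their spread. In tumour libraries the order below the inhibitors was Mmp2 at 163 ± 52.9, Mmp14 at 87.2 ± 19.3 and Adamts1 at 84.2 ± 14.4 CPM per kilobase, and the last 2 did not differ beyond their spread. Adamts1 thus stood above all the proteases in naive skin and below Mmp2 in tumour. Adamts4 (36.4 and 36.7 CPM per kilobase in naive and tumour), Adam10 (35.2 and 30.1), Adam9 (19.8 and 34.3), Adam15 (10.7 and 22.6) and Adam17 (10.2 and 12.4) came next in naive libraries.

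**Figure D2:**
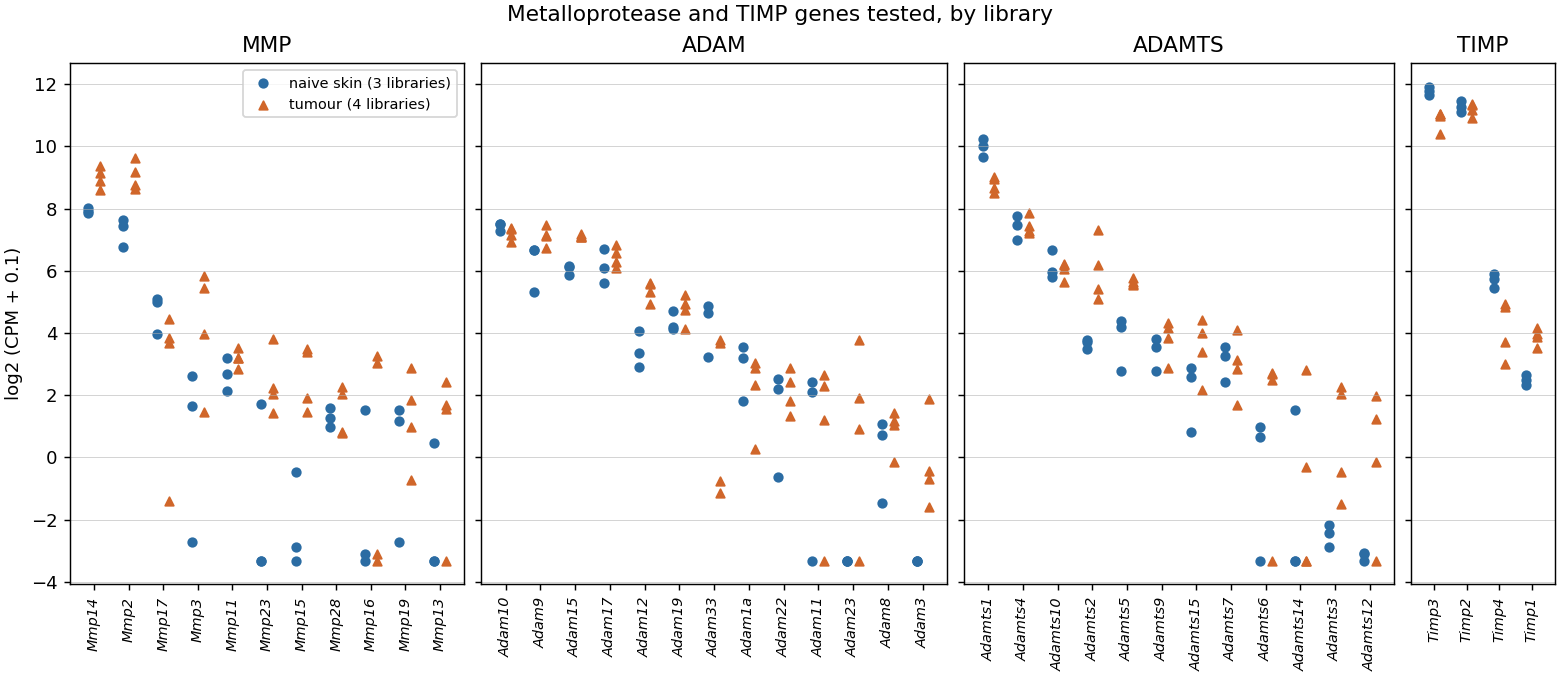
Expression of the 40 tested genes in each library, as log2 of CPM plus 0.1, with 3 naive (blue circles) and 4 tumour (orange triangles) libraries per gene, ordered within each family by level. Timp3 and Timp2 lie highest in both groups, followed by Adamts1 in naive and by Mmp2 and Mmp14, on average, in tumour libraries; points near the bottom are libraries with no or almost no count.

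Among the MMP genes, Mmp2 encodes gelatinase A, a secreted enzyme that cleaves basement membrane collagen (chromosome 8, 92827291 to 92853420, plus strand, GRCm38). Its CPM was 108.3, 175.5 and 200.5 in naive replicates 1 to 3 and 582.8, 393.4, 430.6 and 785.7 in tumour replicates 1 to 4. Every tumour library lay above every naive library, and tumour replicate 4 was highest. Mean CPM rose from 161 ± 47.7 in naive (SD, n = 3) to 548 ± 178 in tumour (SD, n = 4), with a log2 fold change of 1.76 (SE 0.30; edgeR with Benjamini-Hochberg adjustment, adjusted p = 0.03). The call was lost without tumour replicate 1 (adjusted p = 0.057) or 4 (adjusted p = 0.0507), and without naive replicate 1, 2 or 3 (0.107, 0.094 and 0.0861). Tumour replicate 4 also had the highest fibroblast marker sum (18818 CPM) and replicate 2 the lowest Mmp2 and the lowest sum of the tumour libraries (1869 CPM), while replicate 1 had more Mmp2 than replicate 3 with a smaller sum (2955 against 6385 CPM). The part of fibroblast RNA in this result was not tested.

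Mmp14 encodes the membrane-bound collagenase MT1-MMP (chromosome 14, 54431612 to 54445364, plus strand). It had 233.1, 240.5 and 256.8 CPM in naive replicates 1 to 3 and 391.2, 468.6, 560.6 and 657.7 CPM in tumour replicates 1 to 4. The naive libraries lay close together and below all tumour libraries. Mean CPM rose from 243.5 ± 12.1 in naive (SD, n = 3) to 519.6 ± 115 in tumour (SD, n = 4), with a log2 fold change of 1.09 (SE 0.18; edgeR, Benjamini-Hochberg adjusted p = 0.0289). The call was lost without tumour replicate 3 (adjusted p = 0.0655) and without naive replicate 1, 2 or 3 (0.128, 0.0998 and 0.098). Tumour replicates 3 and 4, with the higher Mmp14, also had the higher fibroblast marker sums, whose part in this result was not tested.

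The other MMP genes did not pass. Mmp3, the stromelysin-1 gene, had 0.0515, 6.02 and 3.06 CPM in naive replicates and 2.65, 15.7, 56.6 and 43.8 CPM in tumour replicates (log2 fold change 3.29, SE 1.36; edgeR, Benjamini-Hochberg adjusted p = 0.267). Tumour replicate 1 lay below naive replicates 2 and 3, so the groups overlapped. Mmp17, which encodes a membrane-type MMP held by a lipid anchor, had 15.7, 34.3 and 31.7 CPM in naive and 21.5, 0.279, 14.2 and 12.6 CPM in tumour (log2 fold change -1.16, SE 0.95; edgeR, Benjamini-Hochberg adjusted p = 0.629). Its lowest value, in tumour replicate 2, lay far below the other 6 libraries. Near-empty libraries beside well-filled ones were found for other members too, 15 in all, which had at most 5 counts in 1 library and at least 100 in another of the same group.

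Among the ADAM genes, Adam12 encodes a membrane sheddase of growth factors (chromosome 7, 133883199 to 134232146, minus strand). Its CPM was 7.42, 10.2 and 16.7 in naive replicates 1 to 3 and 48.0, 39.7, 30.6 and 49.0 in tumour replicates 1 to 4. The groups did not overlap, with naive replicate 3 highest of the naive and tumour replicate 3 lowest of the tumour libraries. Mean CPM rose from 11.4 ± 4.74 in naive (SD, n = 3) to 41.8 ± 8.58 in tumour (SD, n = 4), with a log2 fold change of 1.87 (SE 0.34; edgeR, Benjamini-Hochberg adjusted p = 0.0366). Leaving out any 1 library ended the call: the adjusted p was 0.121, 0.119 and 0.0579 without naive replicate 1, 2 or 3, and 0.0683, 0.0645, 0.0517 and 0.0838 without tumour replicate 1, 2, 3 or 4. Of the tumour libraries, Adam12 was highest in replicate 4 and lowest in replicate 3, which had the highest and the second highest fibroblast marker sums; the part of fibroblast RNA was not tested.

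Adam15 encodes metargidin, a membrane ADAM of endothelial and other cells (chromosome 3, 89338542 to 89349996, minus strand). It had 71.0, 58.0 and 69.1 CPM in naive replicates 1 to 3 and 146.0, 134.4, 135.2 and 138.6 CPM in tumour replicates 1 to 4. The groups lay well apart and the 4 tumour libraries close together. Mean CPM rose from 66.0 ± 7.02 in naive (SD, n = 3) to 138.6 ± 5.29 in tumour (SD, n = 4), with a log2 fold change of 1.07 (SE 0.14; edgeR, Benjamini-Hochberg adjusted p = 0.0131). It passed without any 1 of the tumour libraries (adjusted p 0.0291 to 0.039), and not without naive replicate 1, 2 or 3 (0.0669, 0.0647 and 0.0555). Across the tumour libraries its highest and lowest values were 146.0 and 134.4 CPM, and the fibroblast marker sum ran from 1869 to 18818 CPM. The blood endothelial marker sum was 834, 1023 and 737 CPM in naive replicates 1 to 3. In tumour replicates 1 to 4 it was 1550, 1398, 1557 and 1595 CPM. The part of fibroblast or blood endothelial RNA in the Adam15 result was not tested. Its exons overlap the antisense gene 4731419I09Rik, and the library kit did not mark the strand, so reads from the pair cannot be told apart, as for any member whose exons overlap another gene.

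The main sheddase genes did not pass. Adam10 had 155.9, 180.6 and 181.7 CPM in naive and 120.6, 165.1, 162.5 and 143.5 CPM in tumour (log2 fold change -0.22, SE 0.15; edgeR, Benjamini-Hochberg adjusted p = 0.527). Adam17, which encodes the TNF-alpha converting enzyme, had 48.8, 67.7 and 103.1 CPM in naive and 67.4, 95.1, 78.2 and 114.2 CPM in tumour (log2 fold change 0.28, SE 0.28; edgeR, adjusted p = 0.710). The groups overlapped for both, and Adam17 shares exon sequence with the antisense gene Iah1. Adam9, another membrane sheddase gene, had 40.1, 102.0 and 102.5 CPM in naive and 106.9, 140.0, 176.7 and 141.0 CPM in tumour, without overlap but short of the threshold (log2 fold change 0.79, SE 0.33; edgeR, adjusted p = 0.263). Adam19, which encodes a sheddase of neuregulins, had 20.6 ± 4.85 CPM (SD, n = 3) in naive and 27.9 ± 8.25 CPM (SD, n = 4) in tumour, with overlap (log2 fold change 0.44, SE 0.31; edgeR, adjusted p = 0.565). Adam33 had 24.6, 29.2 and 9.33 CPM in naive and 0.347, 0.492, 13.6 and 12.6 CPM in tumour, with tumour replicates 1 and 2 near the floor (log2 fold change -1.63, SE 1.16; edgeR, adjusted p = 0.555). Adam3 and Adam23, singled out after their values were seen, had no naive count. Against a floor of 3 counts per library they were at least 23.7-fold and 91.8-fold higher in tumour (edgeR, adjusted p = 0.133 and 0.155), and Adam23 was also at 0 in tumour replicate 2. Without tumour replicate 4, which was highest for both, the bounds were 8.88-fold and 35.2-fold.

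**Figure D3:**
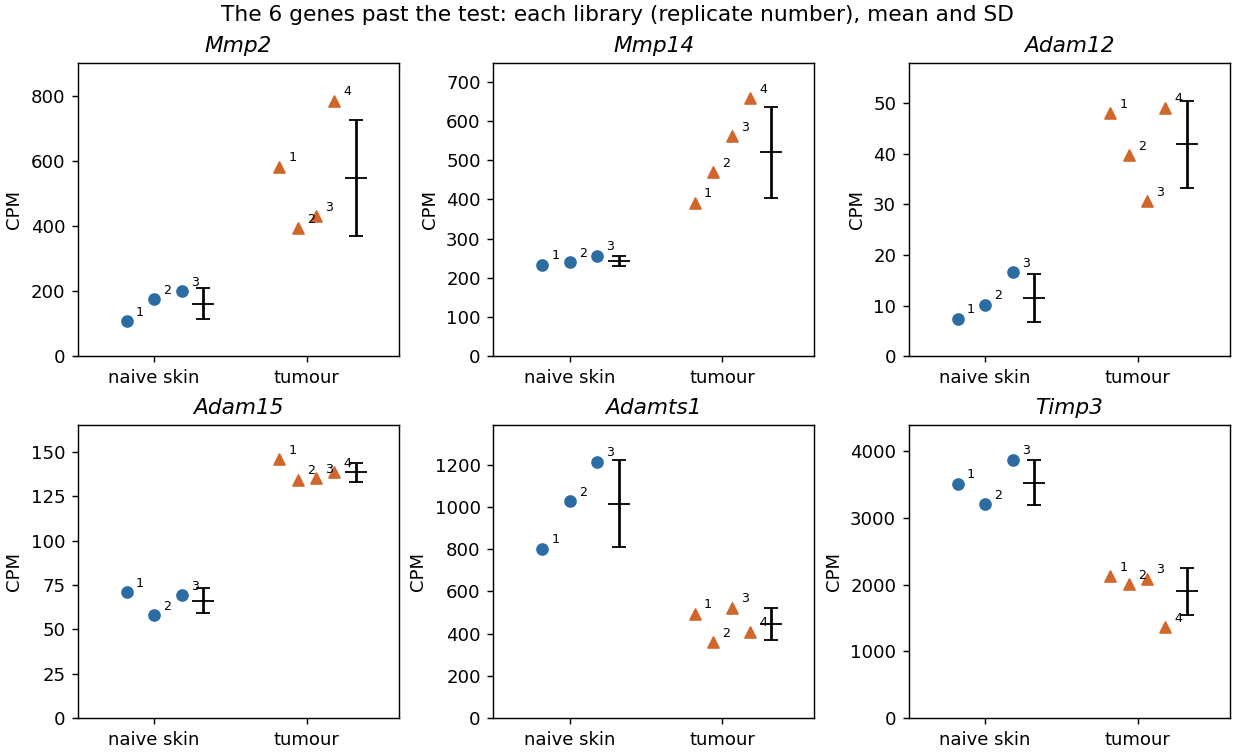
CPM of the 6 genes past the test in each library, numbered by replicate, with mean and SD beside them for 3 naive (blue circles) and 4 tumour (orange triangles) libraries. The groups do not overlap in any panel; Adam15 has the narrowest tumour spread, 134.4 to 146.0 CPM.

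Among the ADAMTS genes, Adamts1 encodes a secreted protease that cleaves the proteoglycans aggrecan and versican (chromosome 16, 85793827 to 85803113, minus strand). It had 802.8, 1028 and 1215 CPM in naive replicates 1 to 3 and 494.9, 358.9, 523.6 and 409.1 CPM in tumour replicates 1 to 4. Every tumour library was lower than every naive library. Mean CPM fell from 1015 ± 206 in naive (SD, n = 3) to 447 ± 76.1 in tumour (SD, n = 4), with a log2 fold change of -1.18 (SE 0.18; edgeR, Benjamini-Hochberg adjusted p = 0.0218). The call was lost without tumour replicate 4 (adjusted p = 0.0586) and without naive replicate 1, 2 or 3 (0.055, 0.0792 and 0.0933).

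Adamts5, a second aggrecanase gene, lies 53060 bases from Adamts1 on the same strand of chromosome 16. It had 18.1, 6.75 and 20.8 CPM in naive and 47.6, 46.8, 54.1 and 50.1 CPM in tumour, higher without overlap of the groups where Adamts1 was lower. It did not pass (log2 fold change 1.71, SE 0.37; edgeR, Benjamini-Hochberg adjusted p = 0.0623). The ratio of Adamts1 to Adamts5, per kilobase of exon, was 90.4, 310 and 119 in naive and 21.2, 15.6, 19.7 and 16.6 in tumour. Adamts4, the other aggrecanase gene of the family measured well, had 126.7, 179.2 and 218.9 CPM in naive and 231.6, 147.2, 173.4 and 154.0 CPM in tumour (log2 fold change 0.01, SE 0.22; edgeR, adjusted p = 0.986). Its groups overlapped. The ratio of Adamts4 to Adamts1 per kilobase was 0.174 to 0.199 in naive and 0.365 to 0.516 in tumour libraries.

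Adamts2 and Adamts3, which encode procollagen-processing enzymes, stood higher in every tumour library and did not pass. Adamts14, a related gene named here after its values were seen, overlapped between the groups, with 0, 0 and 2.76 CPM in naive and 0, 0, 0.702 and 6.94 CPM in tumour. Adamts2 encodes the main procollagen N-proteinase of skin. It had 13.0, 11.01 and 13.6 CPM in naive and 34.1, 43.0, 73.0 and 158.3 CPM in tumour, without overlap (log2 fold change 2.62, SE 0.53; edgeR, Benjamini-Hochberg adjusted p = 0.0515). Its order across tumour libraries was that of Mmp14, with tumour replicate 4 highest, where Col1a1, the type I collagen gene and a fibroblast marker, was also highest at 7608 CPM against 665 to 2314 CPM in the other tumour libraries; the part of fibroblast RNA was not tested. The adjusted p was 0.0413 without tumour replicate 1 and 0.0492 without tumour replicate 4, so that the gene passed there. Adamts3, the VEGF-C-processing protease gene, had 14 counts over the naive libraries (0.0859, 0.122 and 0.0346 CPM) and 4.002, 0.623, 0.255 and 4.70 CPM in tumour, without overlap (log2 fold change 4.86, SE 1.70; edgeR, adjusted p = 0.190). Tumour replicates 2 and 3 stayed below 1 CPM. Adamts10, which encodes a fibrillin-associated member, had 73.3 ± 25.7 CPM (SD, n = 3) in naive and 66.2 ± 11.6 CPM (SD, n = 4) in tumour, with overlap (log2 fold change -0.14, SE 0.25; edgeR, adjusted p = 0.852).

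Among the inhibitors, Timp3 fell (chromosome 10, 86300372 to 86349506, plus strand). It had 3511, 3202 and 3872 CPM in naive replicates 1 to 3 and 2126, 2009, 2087 and 1362 CPM in tumour replicates 1 to 4. All tumour libraries lay below all naive libraries, and tumour replicate 4 lay apart below the other tumour libraries. Mean CPM fell from 3528 ± 336 in naive (SD, n = 3) to 1896 ± 360 in tumour (SD, n = 4), with a log2 fold change of -0.90 (SE 0.17; edgeR, Benjamini-Hochberg adjusted p = 0.0426). It passed without tumour replicate 4 (adjusted p = 0.0437) but not without tumour replicate 1, 2 or 3 (0.06, 0.0757 and 0.0849) or naive replicate 1, 2 or 3 (0.153, 0.0985 and 0.155). Tumour replicate 4 also had the highest fibroblast marker sum (18818 CPM) and the lowest lymphatic endothelial marker sum (11011 CPM). The part of cell content in the Timp3 result was not tested. Timp3 lies within the antisense gene Syn3, which had at most 7.17 CPM.

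The other inhibitor genes did not pass and did not share a direction. Timp2 had 2455, 2224 and 2851 CPM in naive and 2642, 2576, 2299 and 1922 CPM in tumour (log2 fold change -0.09, SE 0.15; edgeR, Benjamini-Hochberg adjusted p = 0.847). Timp1 had 4.93, 5.49 and 6.15 CPM in naive and 11.4, 15.5, 17.6 and 14.6 CPM in tumour, higher without overlap (log2 fold change 1.42, SE 0.36; edgeR, adjusted p = 0.0926). Timp4 had 59.8, 43.7 and 52.99 CPM in naive and 28.7, 30.3, 13.0 and 7.92 CPM in tumour, lower without overlap (log2 fold change -1.38, SE 0.44; edgeR, adjusted p = 0.163). Timp4 overlaps the antisense gene Syn2, which had 18.2 to 81.3 CPM.

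The ratio of enzyme to inhibitor RNA was described within each library, per kilobase of exon. Mmp14 to Timp3 was 0.0907, 0.103 and 0.0906 in naive replicates and 0.251, 0.319, 0.367 and 0.66 in tumour replicates. Mmp14 to Timp2, the pair that takes part in MMP2 activation, was 0.0621, 0.0707 and 0.0589 in naive and 0.0968, 0.119, 0.159 and 0.224 in tumour. Both ratios were higher in every tumour library, and both were highest in replicate 4. That library also had the highest fibroblast marker sum (18818 CPM) and the lowest lymphatic endothelial marker sum (11011 CPM). The part of RNA from other cells in these ratios was not tested. Mmp2 to Timp2 was 0.051, 0.0912 and 0.0813 in naive and 0.255, 0.177, 0.216 and 0.472 in tumour. Timp3 to Timp2 was 0.65 to 0.689 in naive and 0.339 to 0.434 in tumour. These ratios were built from genes described above and are not separate evidence.

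**Figure D4:**
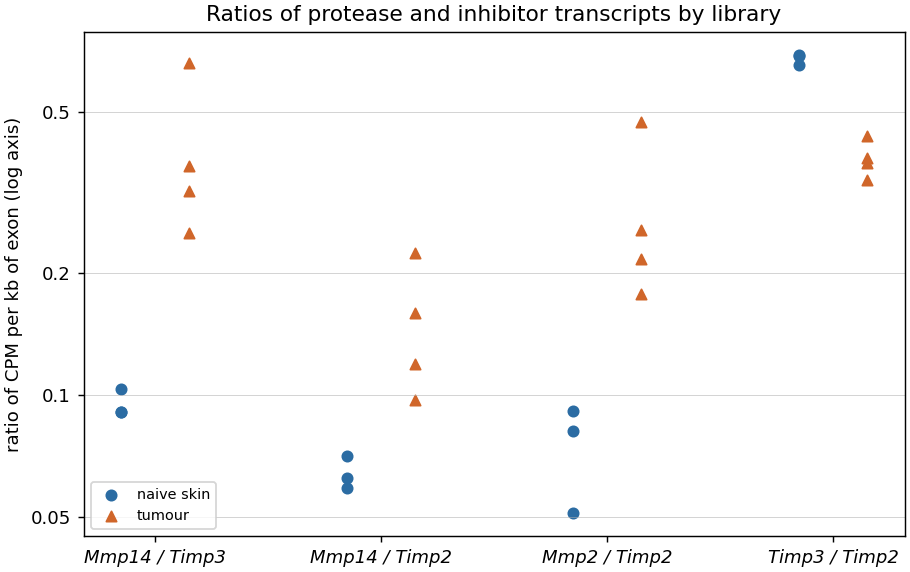
Ratios of CPM per kilobase of exon within each library (log axis) for 4 gene pairs, with 3 naive (blue circles) and 4 tumour (orange triangles) libraries. The first 3 ratios are higher and Timp3 to Timp2 is lower in every tumour library, without overlap.

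Lane 8 was the only sequencing lane, as read from a tag in the sample descriptions, that held both groups. Lane 7 held naive replicates 1 and 2, and lane 6 held tumour replicates 1, 2 and 4. Within lane 8, tumour replicate 3 differed from naive replicate 3 by a log2 of 1.10 for Mmp2, 1.13 for Mmp14, 0.88 for Adam12, 0.97 for Adam15, -1.21 for Adamts1 and -0.89 for Timp3. These directions follow from the lack of overlap between the groups. With lane as a term the 6 genes had adjusted p-values of 0.443 to 0.632 (edgeR, Benjamini-Hochberg). The fit called no gene of the whole table, with 1169 genes at an unadjusted p under 0.05, so it cannot weigh on these calls. Its fold changes rest on the lane 8 pair alone, so the kept direction of the 6 genes is no separate check.

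**Figure D5:**
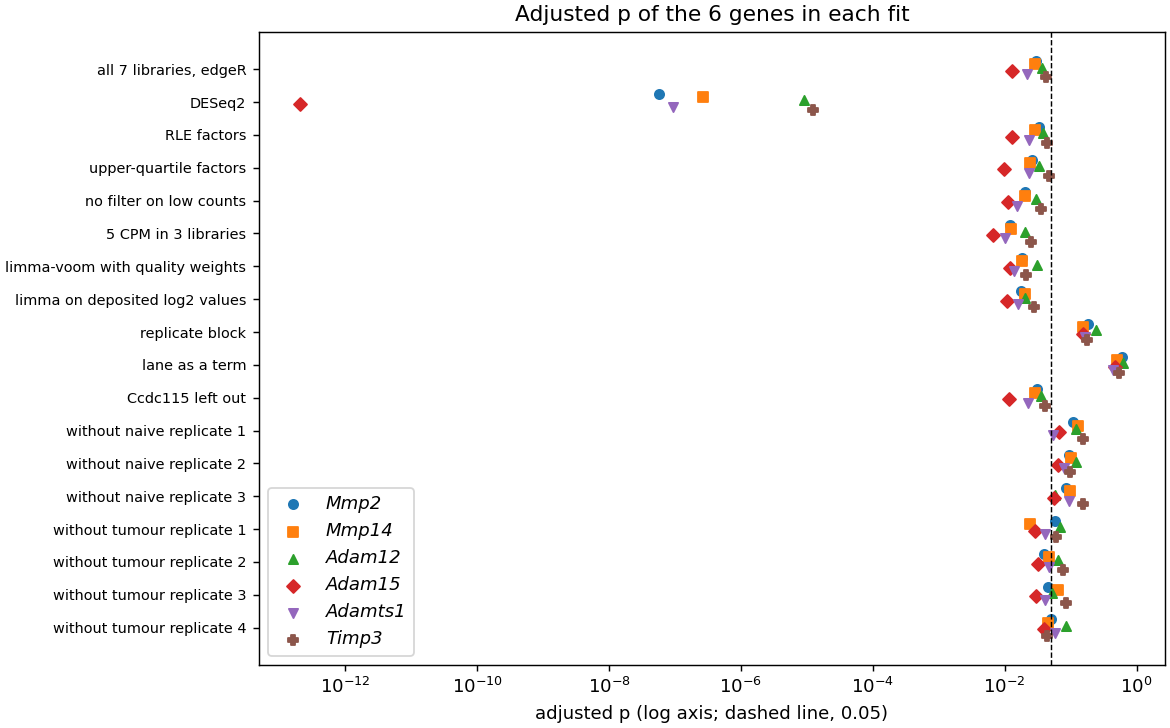
Adjusted p (log axis) of the 6 genes under each fit, with the threshold of 0.05 dashed. All 6 lie left of the line in the edgeR fit of all 7 libraries and in the fits that change scaling, filter or tool, and right of it with the replicate block, with lane as a term and without any naive library.

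Promoters are shown for 3 MMP genes that hold the AP-1 motif and for 3 genes that changed, so that their letters can be read side by side. RefSeq promoters (GRCm38.p6, 250 bases before to 50 after a start) were matched for 48 members, with 53 promoters, and not every member is in that set. The AP-1 motif TGANTCA, the binding sequence of Fos and Jun proteins, was searched on both strands. It occurred in 12 of the 53 (22.6%) and in 7.81% of 32851 promoters. Among the members with it, Adam1b, Adam25, Adam29, Mmp1a, Mmp1b, Mmp7, Mmp10 and Mmp20 had no count in any library. The GC box GGGCGG, searched on both strands, occurred in 23 (43.4%) and in 35.7% of all. The TATA motif TATAAA, searched on the strand of the gene in the last 50 bases before the start, occurred in 7 (13.2%) and in 2.63% of all. Members with the AP-1 motif included Mmp3, Mmp10, Mmp12 and Mmp13, which lie in 1 stretch of chromosome 9; Mmp10 had no count and Mmp13 at most 5.21 CPM. Its first base lay 46 bases before the start of Mmp3, 63 before that of Mmp10 and 35 before that of Mmp13. These 3 are given as 150 bases (plus strand; chr9:7445722-7445871, chr9:7502242-7502391 and chr9:7272414-7272563), with the AP-1 motif in capitals.
Mmp3: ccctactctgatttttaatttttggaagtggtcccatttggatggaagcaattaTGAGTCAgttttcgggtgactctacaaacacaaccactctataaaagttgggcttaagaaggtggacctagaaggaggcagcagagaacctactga
Mmp10: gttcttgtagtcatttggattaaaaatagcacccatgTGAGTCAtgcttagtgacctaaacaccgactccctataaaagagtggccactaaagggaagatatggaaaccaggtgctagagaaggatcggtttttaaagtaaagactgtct
Mmp13: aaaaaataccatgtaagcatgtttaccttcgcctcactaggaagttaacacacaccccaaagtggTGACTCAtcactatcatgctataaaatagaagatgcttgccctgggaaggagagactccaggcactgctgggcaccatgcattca
For 3 of the genes that changed, Mmp14 (chr14:54431348-54431647, plus strand), Adamts1 (chr16:85803064-85803363, minus strand) and Timp3 (chr10:86300162-86300461, plus strand), no AP-1 motif was found in the window, and the GC boxes are in capitals; those of Timp3 are on the opposite strand. Adamts1 also holds TATAAA 32 bases before its start.
Mmp14: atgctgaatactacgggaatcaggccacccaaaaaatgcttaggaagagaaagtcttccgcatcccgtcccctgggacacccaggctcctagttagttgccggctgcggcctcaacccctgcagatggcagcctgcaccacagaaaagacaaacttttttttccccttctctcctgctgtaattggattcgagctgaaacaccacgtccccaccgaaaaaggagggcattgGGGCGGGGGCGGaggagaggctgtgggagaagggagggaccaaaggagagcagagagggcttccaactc
Adamts1: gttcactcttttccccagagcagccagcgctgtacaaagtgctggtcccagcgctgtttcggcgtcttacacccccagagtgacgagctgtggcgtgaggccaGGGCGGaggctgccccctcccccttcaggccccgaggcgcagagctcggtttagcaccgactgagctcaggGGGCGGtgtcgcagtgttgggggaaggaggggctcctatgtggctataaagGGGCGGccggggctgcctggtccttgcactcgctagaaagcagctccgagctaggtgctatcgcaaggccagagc
Timp3: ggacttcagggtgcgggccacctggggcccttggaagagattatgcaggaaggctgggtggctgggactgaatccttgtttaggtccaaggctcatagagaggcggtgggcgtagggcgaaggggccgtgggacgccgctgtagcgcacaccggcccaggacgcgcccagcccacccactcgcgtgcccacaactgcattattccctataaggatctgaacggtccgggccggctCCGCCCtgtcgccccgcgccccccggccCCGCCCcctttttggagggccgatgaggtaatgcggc
A match is a description of letters and not of a bound site.

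Proteins that work with these enzymes were described from lists of activators, partners and substrates, in which 9 of 84 tested genes passed. The 6 higher genes were 7.14% and the 3 lower genes 3.57% of those tested, beside 0.899% and 0.803% of all genes tested. The number was 1, 2 and 3 without naive replicate 1, 2 or 3, in fits with few calls in the whole table. It was 7, 8, 5 and 5 without tumour replicate 1, 2, 3 or 4. Of 21 tested activators and surface regulators, 1 passed, with a median log2 fold change of -0.02. Plaur, the receptor of the plasminogen activator urokinase, fell from 1437, 1567 and 1291 CPM in naive replicates to 641, 630, 651 and 494 CPM in tumour replicates (log2 fold change -1.24, SE 0.14; edgeR, Benjamini-Hochberg adjusted p = 0.01). All tumour libraries were lower. Furin, the proprotein convertase that activates many of these enzymes, had 106.6, 169.4 and 224.1 CPM in naive and 253.7, 150.1, 101.9 and 130.1 CPM in tumour (edgeR, adjusted p = 0.952). Bsg, the MMP-inducing surface protein basigin, had 395 ± 71.7 CPM in naive (SD, n = 3) and 522 ± 51.3 CPM in tumour (SD, n = 4; log2 fold change 0.40; edgeR, adjusted p = 0.228). Reck, a membrane inhibitor of MMPs, had 42.5, 7.01 and 31.6 CPM in naive and 31.1, 21.1, 23.4 and 43.8 CPM in tumour (edgeR, adjusted p = 0.935). The groups overlapped for these 3.

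Of 10 other metallopeptidase genes tested, 2 rose, with a median of 0.30. Ecel1, an endopeptidase of the neprilysin family, had 2 naive counts and 92.6, 43.9, 21.9 and 134.8 CPM in tumour (edgeR, Benjamini-Hochberg adjusted p = 0.00468). Its ratio of summed counts was 6308 (exact 95% interval 1746 to 52090). That interval covers counting error only and not the spread between libraries. Cpm, which encodes carboxypeptidase M, had 0.0344, 0.469 and 0.173 CPM in naive and 30.0, 10.6, 10.2 and 13.1 CPM in tumour (log2 fold change 6.14, SE 0.99; edgeR, adjusted p = 0.0249). Of 9 ADAMTS-like and procollagen partner genes tested, 1 rose, with a median of 0.98. Adamtsl1, a secreted relative of the ADAMTS enzymes without a protease domain, had 20.7, 21.3 and 27.4 CPM in naive and 69.8, 92.6, 61.2 and 60.9 CPM in tumour (log2 fold change 1.62, SE 0.23; edgeR, adjusted p = 0.0171). Ccbe1, the ADAMTS3 cofactor gene, had no naive count and 0, 0.0328, 0 and 1.83 CPM in tumour, too low to test. Vegfc had 1 naive count and 0, 2.77, 1.07 and 0.0167 CPM in tumour, also untested.

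Among 25 tested genes of surface proteins shed by ADAM10 and ADAM17, 2 fell, with a median of -0.18. Notch1, the Notch receptor, had 238.8, 191.9 and 303.5 CPM in naive and 137.4, 104.6, 87.6 and 123.1 CPM in tumour (log2 fold change -1.11, SE 0.20; edgeR, Benjamini-Hochberg adjusted p = 0.0385). Efnb2, the membrane ligand ephrin-B2, had 349.1, 320.0 and 519.9 CPM in naive and 239.4, 193.5, 167.7 and 183.7 CPM in tumour (log2 fold change -1.01, SE 0.20; edgeR, adjusted p = 0.0452). Both were lower in every tumour library. Among 19 tested matrix substrates, 3 rose and 12 were higher without overlap, with a median of 1.08; over all genes tested, 0.899% rose and 9.54% were higher without overlap. Eln, the elastin gene, rose from 169 ± 17.6 CPM in naive (SD, n = 3) to 356 ± 46.5 CPM in tumour (SD, n = 4; log2 fold change 1.08; edgeR, adjusted p = 0.016). Nid1, which encodes a linker of basement membranes, rose by a log2 of 1.01 (SE 0.16; edgeR, adjusted p = 0.0219). Thbs1, which encodes the matricellular protein thrombospondin-1, had 34.3, 51.4 and 54.8 CPM in naive and 174.2, 103.4, 324.0 and 451.8 CPM in tumour (log2 fold change 2.49, SE 0.49; edgeR, adjusted p = 0.0454). The summed CPM of the substrate list was 3058 to 4227 in naive and 5118 to 23355 in tumour, highest in replicate 4, where 16 of its genes had their highest tumour value and the fibroblast markers were highest. The part of fibroblast RNA in these values was not tested.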

How the data were processed

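RNA sequencing counts were analysed from 3 naive and 4 tumour libraries (RNeasy Micro, SMART-Seq v4, unstranded, per the labels' protocols). The authors deposited raw counts per gene and normalized values on a log2 scale. Trimmomatic 0.38 and mm10 were used, per the submitters' processing notes. Aligner, counter, annotation and normalization were not given in the sources used here, and the unit of the counts was read from their whole-number values; 25 symbols turned into dates by a spreadsheet were left out. Ccdc115 took 6.68% to 16.5% of a library's counts, so 1 alternative left it out.

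Counts were tested on the whole table in R 4.3.3 with edgeR 4.0.16 (filterByExpr, TMM factors 0.924 to 1.13, robust glmQLFit, glmQLFTest; 13453 genes; common biological coefficient of variation 0.749), with Benjamini-Hochberg adjustment at 0.05. The procedure was also run on simulated data. The settings and outcome of that run are not given here, so no support for the calls is drawn from it. CPM use TMM-adjusted library sizes. Ratios and floors cover counting error only. Positions and exon lengths come from GENCODE M21 (GRCm38). Alternatives were DESeq2 1.42.0, limma 3.58.1 (voom; deposited log2 values), RLE and upper-quartile factors, filters, a replicate block, lane as a term, and leaving out each library. Same-numbered libraries did not deviate together (correlations -0.006, -0.037 and -0.021).

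The members and lists were chosen with earlier results of these data known. Named with values were members past the threshold, those with at least 20 CPM in either group's mean, and 11 fixed genes; of each list, up to 4 genes past the threshold and 5 fixed genes.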

Additional observations from a re-analysis of the deposited data

Results flagged for a closer look

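Timp3 in tumour replicate 4 stood apart at 1362 CPM, below 2009 to 2126 CPM in the other tumour libraries. The gap to the nearest of them was 0.847 of the group's range, over the Dixon limit for 4 libraries. It was the 1 flag among 21 genes checked in the tumour group, and chance flags about 1 in 20 such groups. Tumour replicate 4 also had the highest fibroblast marker sum (18818 CPM) and the lowest lymphatic endothelial marker sum (11011 CPM). The part of cell content in this value was not tested. Timp3 passed the test without this library (edgeR, Benjamini-Hochberg adjusted p = 0.0437).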

How the results depend on the processing

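The 6 calls held with DESeq2, upper-quartile or RLE factors, no filter, at least 5 CPM in 3 libraries, limma-voom, limma on the deposited log2 values, and without Ccdc115. The members called numbered 4 higher and 2 lower of 40 with edgeR on all libraries, where 121 and 108 of 13453 genes were called. DESeq2 called 15 and 3 of 41 members, and 33 regulators and partners instead of 9. It also called more of the whole table, 947 genes higher and 566 lower of 14046. With the replicate block, whose numbers do not pair the libraries, 0 members were called in either direction (14 at an unadjusted p under 0.05) and 1 regulator. That fit called 3 genes of the whole table higher and 0 lower. With lane as a term 0 members (6 unadjusted) and 0 regulators were called, in a fit that called no gene of the whole table. Leaving out 1 library gave 0 to 3 higher members, 0 to 1 lower members, 1 to 8 regulators and medians of 1.25 to 1.90 for MMP, 0.28 to 0.86 for ADAM and 0.69 to 1.90 for ADAMTS. The ADAMTS median, 1.23 with all libraries, was 0.49 with the 5 CPM filter, 0.24 on the deposited log2 values, 0.71 with the replicate block and 0.37 with lane as a term. In the same order the MMP median, 1.76, was 1.11, 0.51, 0.95 and 1.13, and the ADAM median, 0.44, was 0.33, 0.16, 0.69 and 0.09. Among genes that did not pass, the sign turned with lane as a term, which restates the lane 8 pair, for Adam17 (-0.40), Adam33 (0.54) and Adamts4 (-0.34). The sign turned with voom for Adamts4 (-0.022) and with the replicate block for Timp2 (0.0033). It also turned on leaving out 1 library for Adamts4 (-0.17 to 0.21), Adamts10 (-0.31 to 0.18) and Timp2 (-0.17 to 0.018). The cause was not tested. Counts near the floor limit what can be said of low members. Adamts2 and Adamts5, at adjusted p of 0.0515 and 0.0623, passed under some settings, both with DESeq2.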
